A study of Homo sapiens with 66 samples.

Results

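Loss of CDK9 kinase was studied in wild-type KBM7 cells by comparing 3 libraries from cells treated with THAL-SNS-032 at 250 nM for 6 h with 3 libraries from cells treated with the solvent DMSO for the same time. These 6 libraries, chosen by their labels, belong to a set of 66. KBM7 is an established, near-haploid human chronic myeloid leukemia line. The other libraries hold wild-type cells with dTAG7 at 500 nM or dBET6 at 100 nM, and 9 KBM7 lines in which CDK9 or a Mediator subunit carries a dTAG and which received DMSO or 500 nM dTAG7. None of the wild-type cells carries a dTAG, so the wild-type dTAG7 libraries are a control for that ligand alone. Each library is the 3′ end sequencing (QuantSeq) of 1 culture well. The edgeR p-values below measure the spread between wells of the same line and treatment. That spread was estimated over all 22 groups of the set, the tagged lines included, and not from these 6 libraries alone.

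THAL-SNS-032 joins SNS-032, an inhibitor of CDK2, CDK7 and CDK9, to a ligand of the ubiquitin ligase receptor cereblon, and thereby marks CDK9 for destruction by the proteasome. CDK9 with a cyclin T forms P-TEFb, which phosphorylates RNA polymerase II, the pausing factor NELF and the factor DSIF so that polymerase paused near a promoter can enter the gene. Much of the P-TEFb of a cell is held inactive by the 7SK RNA with HEXIM1, LARP7 and MEPCE. When new transcription stops, short-lived messages such as MYC and MCL1 are known to be lost first, and stable ones such as those of ribosomal proteins persist.

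The THAL-SNS-032 libraries held far less cellular RNA for each spike-in molecule. Equal amounts of synthetic ERCC and SIRV transcripts had been added to lysates of equal cell numbers, so the ratio of gene counts to spike-in counts gives RNA per seeded cell. This ratio was 126, 139 and 120 in DMSO replicates A, B and C, and 23.2, 19.7 and 25.2 in THAL-SNS-032 replicates A, B and C. The treated libraries all lay below the controls. On the log2 scale the means differed by -2.5, which leaves 17.6% of the control level (exact two-sided permutation test, p = 0.1, the smallest that 3 against 3 can give). In bulk samples, fewer cells and less RNA per cell cannot be told apart. The treated libraries held 784033 to 1105305 gene counts and 31065 to 56135 spike-in counts, and the DMSO libraries 2502436 to 3175996 and 18031 to 26197, so treated values carry more counting error.

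THAL-SNS-032 replicate B stood apart: it had the lowest ratio and the highest share of mitochondrially encoded counts, 14.5% beside 11.7% and 10.5% in A and C. Counts of B and C differed by 4.62 times the sampling variance, beside 1.75 for A and C and 2.3 to 2.8 among the DMSO libraries. Results that rest on B are given with and without it.

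**Figure D1:**
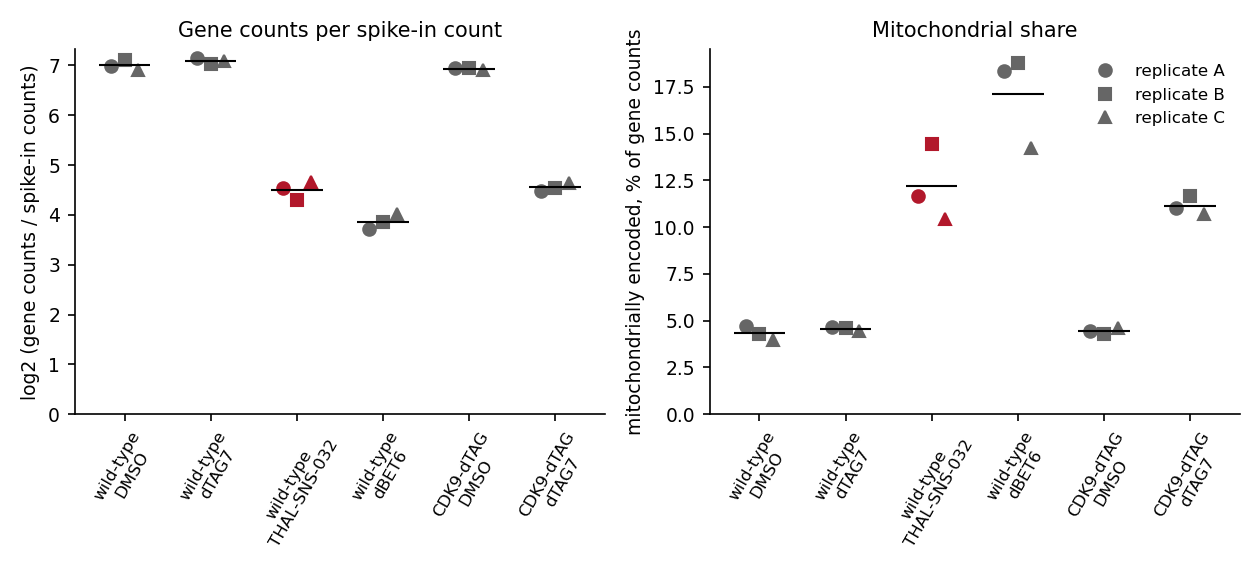
The log2 ratio of gene counts to spike-in counts (left) and the share of gene counts from mitochondrially encoded genes in percent (right) by group; each symbol is 1 library and lines are means of 3. The THAL-SNS-032 libraries, in red, lie at a log2 ratio of 4.30 to 4.66, beside 6.91 to 7.12 for DMSO, and at a mitochondrial share of 10.5% to 14.5%, beside 3.96% to 4.69%.

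Nearly every transcript fell per seeded cell. On the spike-in scale, where the spike-in count is the library size, 12045 of 12515 genes tested were lower (96.2%) and 32 were higher (0.256%) at an adjusted p under 0.05 in edgeR's quasi-likelihood test with Benjamini-Hochberg adjustment. The median gene changed by -2.86 log2, which leaves 13.8%, and the 5th to 95th percentile ran from -3.98 to -1.54. To compare genes with each other, the same counts were scaled to the median gene (TMM scale), where 1814 of 12892 genes were higher (14.1%) and 2065 were lower (16%). A gene "higher" on the TMM scale fell less than the median gene, or rose. Its spike-in change says which, where the gene passed the count filter on that scale. The shares of 14.1% and 16% are the background for the counts of list members below, but called shares varied with level. Protein-coding genes were also cut into 5 equal bins by DMSO level. On the TMM scale 10.8% were higher and 3.21% lower in the lowest bin. The following bins had 6.65% and 12.8%, 8.29% and 24.1%, and 12% and 28.3%. The highest bin had 26.9% and 22.5%. Whether a list differs from genes of the same level was not tested. Without THAL-SNS-032 replicate B, 1260 genes were higher and 1257 lower on the TMM scale, of which 1181 and 1192 were among the calls with it. Wild-type cells with dTAG7 showed 0 calls on either scale, with 490 genes at an unadjusted p under 0.05 on the spike-in scale and 344 on the TMM scale (edgeR).

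**Figure D2:**
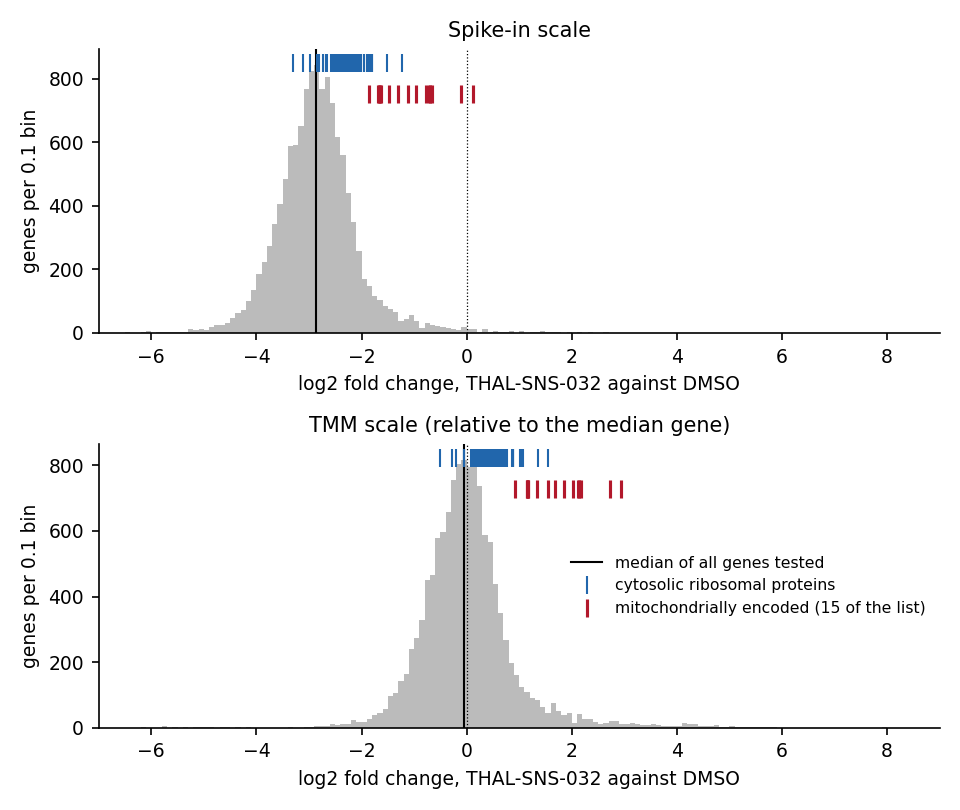
Number of genes per 0.1 log2 bin against the log2 fold change of THAL-SNS-032 over DMSO, on the spike-in scale (top) and the TMM scale (bottom). Black lines are the medians of all genes tested, -2.86 and -0.05; blue ticks are the 80 ribosomal protein genes and red ticks the 15 listed mitochondrially encoded genes, both right of the median.

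Transcripts of P-TEFb and its partners fell with the rest. All 16 tested members of the list of P-TEFb, its 7SK inhibitors and the super elongation complex were lower on the spike-in scale, with a median of -3.06. On the TMM scale 4 of them were lower, 2 higher and 10 not called, beside 16% lower and 14.1% higher among all genes tested. Without THAL-SNS-032 B 3 were lower and 0 higher, and without any other of the 6 libraries 1 was higher. CDK9 itself (chromosome 9, 127785679 to 127790787, hg38) was a low transcript, at 6.76, 13.3 and 8.78 counts per 10000 spike-in counts in DMSO A, B and C and 3.14, 1.07 and 2.58 with THAL-SNS-032. All 3 treated values lay below the controls, on a total of 64 against 25 counts, and the change was -2.14 ± 0.52 log2 (SE, edgeR adjusted p = 0.000125). Relative to the median gene CDK9 was not called (0.65 log2, edgeR adjusted p = 0.349). The degrader acts on the protein, which was not analysed here, so these RNA counts do not check its loss.

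CCNT1, the main cyclin partner of CDK9, went from 74.0, 82.1 and 82.5 to 8.0, 8.73 and 10.9 counts per 10000 spike-in counts, leaving 11.5%, close to the 13.8% of the median gene. HEXIM1 (chromosome 17, 45148502 to 45152101), the inhibitor whose transcription is known to follow P-TEFb activity, went from 49.7, 68.8 and 65.7 to 12.6, 12.5 and 14.5. It kept 21.5% of its control level and was higher on the TMM scale by 0.60 ± 0.18 log2 (SE, edgeR adjusted p = 0.00797), a call that ended without THAL-SNS-032 B (adjusted p = 0.118) and without DMSO A (0.0552). MEPCE, which caps and stabilizes 7SK RNA, went from 109, 109 and 95.8 to 6.57, 4.63 and 12.9 and was lower on the TMM scale by -1.0 log2 (edgeR adjusted p = 6.68e-05). LARP7, which also binds 7SK, kept 12.4% and was not called on that scale (-0.21 log2, edgeR adjusted p = 0.0686), but was called without THAL-SNS-032 B (-0.28 log2, adjusted p = 0.0407). Of the super elongation complex, the elongation factor ELL was lower on the TMM scale (-0.89 log2, edgeR adjusted p = 0.000138). MLLT3 and MLLT1 were lower by -0.69 and -0.51 there, calls that ended without THAL-SNS-032 B (edgeR adjusted p = 0.0627 and 0.119) and, for MLLT3, without THAL-SNS-032 A (0.0617). The scaffold AFF4 was higher by 0.40, a call that ended in 5 of 6 tests that left out 1 library.

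Factors that act on paused polymerase included deep falls in NELFA and PAF1. Of 25 pausing and elongation factors, 9 were lower and 3 higher on the TMM scale, without THAL-SNS-032 B 6 and 1, and 1 was higher also without DMSO C or THAL-SNS-032 C. NELFA, a subunit of the pausing complex NELF, went from 99.0, 122 and 95.4 to 3.72, 4.10 and 7.08 counts per 10000 spike-in counts, leaving 4.60% (TMM scale -1.63 ± 0.18 log2, SE, edgeR adjusted p = 1.75e-10). PAF1, of the elongation complex that bears its name, went from 79.9, 77.1 and 69.9 to 4.57, 3.56 and 5.15, leaving 5.74%. In both genes the arms were far apart. POLR2A, the catalytic subunit of RNA polymerase II, kept 14.6%, close to the median gene. Of 13 Integrator subunits 5 were lower and 0 higher on the TMM scale, with a median of -0.30 log2, and 3 were lower without THAL-SNS-032 B and 2 without THAL-SNS-032 C. CRBN, the cereblon transcript, kept 12.5% and was not called on the TMM scale (edgeR adjusted p = 0.458).

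Transcription factors of blood cells fell further than most genes. Of 35 tested, 16 were lower and 2 higher on the TMM scale, with a median of -0.53 log2 beside -0.05 for all genes, and the median on the spike-in scale left 10.1%. CEBPA (chromosome 19, 33299934 to 33302564), the driver of granulocyte fate, went from 175, 186 and 169 to 6.0, 5.17 and 9.01 counts per 10000 spike-in counts. Each treated library thus kept a small part of the control level, 3.68% by the fit, and the TMM change was -1.95 ± 0.15 log2 (SE, edgeR adjusted p = 1.9e-16). MYC, the growth regulator, went from 87.5, 156 and 124 to 8.29, 3.92 and 6.76, leaving 4.97% (TMM scale -1.52 ± 0.33 log2, SE, edgeR adjusted p = 0.000263). MYB, required for progenitor growth, went from 759, 770.3 and 691 to 67.7, 53.3 and 67.3, leaving 8.43%.

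Other factors lower on the TMM scale, named after their values were seen, were GFI1 (-1.44), NFE2 (-1.29), BCL11A (-1.26), MEIS1 (-1.16), SPI1 (-0.81), TAL1 (-0.79) and LMO2 (-0.78). The 2 higher members, MYBL2 (0.39), a cell cycle factor, and MEF2C (0.30), lost their calls without THAL-SNS-032 B (edgeR adjusted p = 0.244 and 0.332), without DMSO B (0.108 and 0.1) and, for MYBL2, without DMSO A (0.0501). Without THAL-SNS-032 B 12 members were lower and 0 higher. GATA2, of stem and progenitor cells, kept 11.5% and was not called on the TMM scale (edgeR adjusted p = 0.149). GATA1, the erythroid factor, rested on 15 counts in DMSO and 2 with treatment, a ratio of 7.57% with a 95% counting interval from 0.840% to 32.6%. Of 13 genes of the MYC network 5 were lower and 0 higher on the TMM scale, and without THAL-SNS-032 B 2 were lower.

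MCL1, a survival protein of short half-life and often the readout of CDK9 inhibitors, went from 265, 321 and 281 to 36.0, 29.4 and 43.5 counts per 10000 spike-in counts. It kept 12.4%, near the median gene, and was not called on the TMM scale (-0.21 log2, edgeR adjusted p = 0.0827). In the BCL2 family 1 of 17 members was lower on the TMM scale and 2 were higher, beside 16% and 14.1% of all genes tested. The lower one was BCL2 itself (-0.44). The higher ones were the mitophagy receptor BNIP3L (0.99) and PMAIP1, which antagonizes MCL1 (0.71). These 3 were named after their values were seen.

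**Figure D3:**
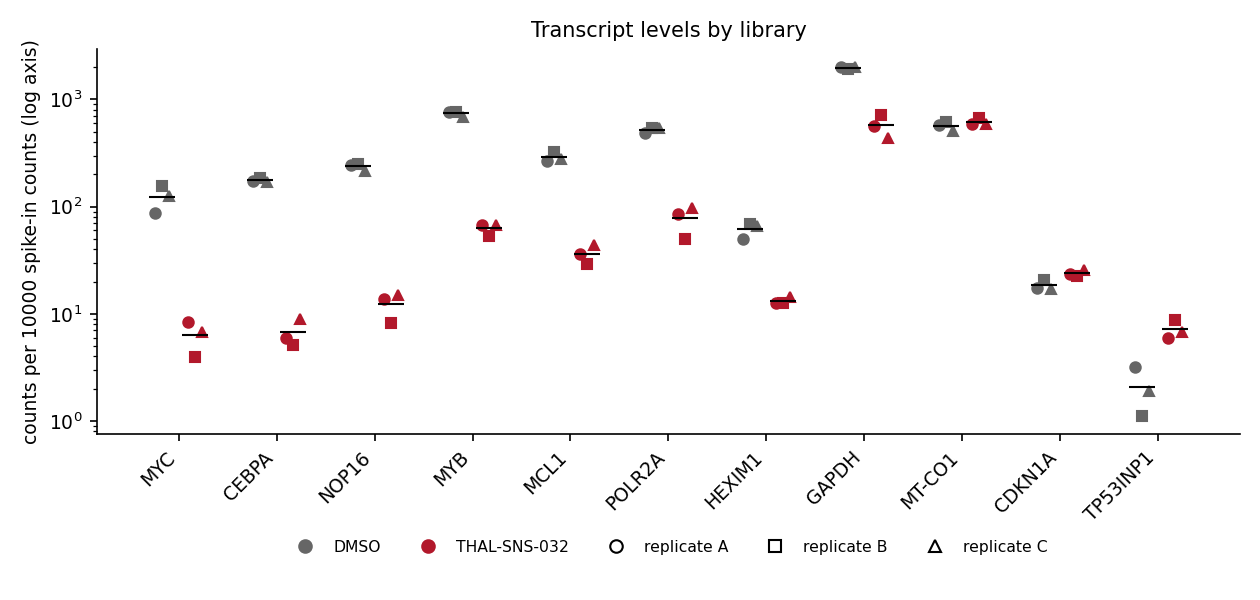
Counts per 10000 spike-in counts (log axis) of 11 genes in the 3 DMSO libraries (grey) and 3 THAL-SNS-032 libraries (red); lines are means. The gap is wide in MYC and CEBPA, at the left, where 4.97% and 3.68% were left. In MT-CO1 the arms overlap. In CDKN1A and TP53INP1 every treated library lies above the controls, though the rise of CDKN1A was not called.

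Mitochondrially encoded transcripts, made by a separate polymerase inside the organelle, kept far more of their level than nuclear ones. All 15 listed genes were higher on the TMM scale, with a median of 1.68 log2, and the same 15 were higher without THAL-SNS-032 B. On the spike-in scale 13 of 15 were lower, with a median of -1.12 log2 that leaves 46.1%. MT-CO1, a subunit of cytochrome c oxidase, was at 578, 618 and 507 counts per 10000 spike-in counts in DMSO and at 585, 666 and 592 with THAL-SNS-032. The arms overlapped, and the spike-in change was 0.12 ± 0.12 log2 (SE, edgeR adjusted p = 0.349). MT-ND5, of complex I, likewise was not called on that scale (-0.11 log2, edgeR adjusted p = 0.428), though it was called lower without DMSO C (-0.28 log2, adjusted p = 0.0468). Summed over the organelle's genes, 49.2% of the control level was left, beside 16.3% for nuclear genes. The rise in mitochondrial share thus accompanied a fall in mitochondrial counts per spike-in count.

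Messages for the translation machinery and energy metabolism fell less than the median gene. Of 80 cytosolic ribosomal protein genes 61 were higher and 1, RPL36A, lower on the TMM scale, with a median of 0.48 log2. On the spike-in scale all 80 were lower, with 20.4% left at the median. RPS27 (1.36) and RPL41 (1.03) were among the highest. Of 43 translation factors 17 were higher and 6 lower on the TMM scale. PABPC1, the poly(A)-binding protein, kept 25.6% (TMM scale 0.87 log2, edgeR adjusted p = 1.18e-05), while the helicase EIF4A1 was lower (-1.10, named after its value was seen). Without THAL-SNS-032 B, 10 factors were higher and 6 lower. Many of these genes have processed pseudogenes with near-identical sequence, so reads may be split among copies.

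Of 70 nuclear genes of the respiratory chain 36 were higher and 0 lower on the TMM scale, with a median of 0.35 log2, and 35 were higher without THAL-SNS-032 B. Of the glycolysis list 9 of 21 genes were higher on the TMM scale and 3 lower. The higher members were enzymes of the pathway such as GAPDH (1.07), ALDOA (0.86) and ENO1 (0.63). The 3 lower members were the glucose transporter SLC2A1 (-1.15), the first enzyme HK2 (-1.07) and the regulator PFKFB3 (-0.90). Without THAL-SNS-032 A only 1 gene was lower, and the call of SLC2A1 was among those that ended (edgeR adjusted p = 0.149). Without THAL-SNS-032 B 6 were higher and 2 lower. GAPDH went from 1997, 1928 and 2022 to 565, 724 and 434 counts per 10000 spike-in counts, leaving 29%. Its treated values differed more than its controls, and the TMM change was 0.68 log2 without THAL-SNS-032 B (edgeR adjusted p = 0.0574).

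Genes that build ribosomes mostly fell further than the median gene, unlike the ribosomal proteins themselves. On the spike-in scale all 43 tested were lower, with a median of -3.29 log2. Of 43 ribosome biogenesis genes 26 were lower and 5 higher on the TMM scale, with a median of -0.48 log2, and without THAL-SNS-032 B 23 were lower and 3 higher, and without DMSO B 2 were higher. NOP16, a nucleolar assembly factor, went from 247, 248 and 217 to 13.7, 8.19 and 15.1 counts per 10000 spike-in counts, leaving 5.01% (TMM scale -1.52 ± 0.15 log2, SE, edgeR adjusted p = 3.67e-12). POLR1B, a core subunit of RNA polymerase I, went from 63.2, 58.2 and 69.1 to 3.43, 2.67 and 3.86, leaving 5.11%. The 5 higher members, NPM1 (0.22), DKC1 (0.28), NCL (0.38), DDX21 (0.45) and FBL (0.54), encode abundant nucleolar proteins. FBL, the rRNA methyltransferase fibrillarin, lost its call without THAL-SNS-032 B (edgeR adjusted p = 0.297) and without DMSO B (0.0938). DKC1, of snoRNPs and telomerase, lost it without THAL-SNS-032 B (0.424), DMSO A (0.109) or DMSO B (0.118).

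Members of this list often carry the E-box CACGTG, a palindrome that MYC and related factors are known to bind, near their start sites. In RefSeq promoter windows of GRCh38.p14, 250 bases before to 50 after the start, it stood in 14 of 36 matched list members (38.9%), beside 10.5% of 9606 tested genes and 7.43% of all 27305 windows. By call, 8 of 24 lower members, 1 of 5 higher and 5 of 7 uncalled members held it, and whether it goes with the change was not tested. The windows of 3 of the lower genes and of the higher gene FBL, picked after their values were seen, show where it lies, with CACGTG in capitals. CD3EAP (POLR1G in RefSeq), an RNA polymerase I subunit, is on the plus strand at chr19:45406394-45406693, NOP2, an rRNA methyltransferase, on the minus strand at chr12:6568242-6568541, RRP9, of the U3 snoRNP, on the minus strand at chr3:51941855-51942154 and FBL on the minus strand at chr19:39846330-39846629.
CD3EAP: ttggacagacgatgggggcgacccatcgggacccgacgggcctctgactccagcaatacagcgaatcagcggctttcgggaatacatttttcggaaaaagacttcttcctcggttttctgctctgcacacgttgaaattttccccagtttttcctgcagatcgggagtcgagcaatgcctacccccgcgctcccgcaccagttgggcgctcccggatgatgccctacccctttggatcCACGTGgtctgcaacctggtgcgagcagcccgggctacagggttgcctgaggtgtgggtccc
NOP2: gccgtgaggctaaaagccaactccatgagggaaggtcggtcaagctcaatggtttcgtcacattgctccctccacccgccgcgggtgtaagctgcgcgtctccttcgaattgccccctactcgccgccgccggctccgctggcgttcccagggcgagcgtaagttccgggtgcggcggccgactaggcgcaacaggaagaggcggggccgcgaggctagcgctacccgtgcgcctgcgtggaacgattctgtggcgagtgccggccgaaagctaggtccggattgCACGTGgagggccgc
RRP9: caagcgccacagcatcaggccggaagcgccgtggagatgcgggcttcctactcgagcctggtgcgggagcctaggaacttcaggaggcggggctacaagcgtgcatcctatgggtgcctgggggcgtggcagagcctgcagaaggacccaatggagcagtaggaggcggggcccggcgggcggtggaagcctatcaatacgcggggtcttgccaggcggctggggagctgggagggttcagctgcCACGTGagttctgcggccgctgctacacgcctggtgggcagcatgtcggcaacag
FBL: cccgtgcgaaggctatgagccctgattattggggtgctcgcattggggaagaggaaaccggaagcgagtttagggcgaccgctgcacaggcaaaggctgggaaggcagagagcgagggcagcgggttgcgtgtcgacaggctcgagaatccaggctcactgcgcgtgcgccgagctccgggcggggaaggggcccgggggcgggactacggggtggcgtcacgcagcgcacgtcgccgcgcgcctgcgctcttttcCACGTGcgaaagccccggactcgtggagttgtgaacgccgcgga
The first base of the motif lay at -12 from the start in CD3EAP, at 36 in NOP2, at -5 in RRP9 and at 7 in FBL, with the start base counted as 1. CD3EAP went from 218, 224 and 207 to 9.72, 9.26 and 16.1 counts per 10000 spike-in counts, NOP2 from 81.1, 97.1 and 80.5 to 5.72, 4.10 and 7.08, and RRP9 from 59.2, 68.8 and 51.5 to 4.29, 2.32 and 5.47. FBL went from 1770.0, 1696 and 1808 to 362, 396 and 319. On the spike-in scale the arms were apart in all 4 genes, as in 11943 of 12515 genes tested. On the TMM scale those of FBL overlapped. The first 3 kept 5.26%, 6.33% and 6.37% and FBL kept 20.4%. Among ribosomal protein promoters 3 of 65 held the motif (4.62%).

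Mitochondrial ribosomal proteins, which are nuclear encoded, went with ribosome biogenesis in direction relative to the median gene. Of 59 tested, 23 were lower and 2 higher on the TMM scale, with a median of -0.21 log2, and without THAL-SNS-032 B 16 were lower. MRPL17 was the lowest member, at 115, 138 and 123 counts per 10000 spike-in counts in DMSO and 7.43, 5.34 and 8.69 with treatment, leaving 5.57%.

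Targets of the tumor suppressor p53 kept more RNA than most genes, and 4 were not called lower per seeded cell; 1 rose. Of 29 tested, 17 were higher and 4 lower on the TMM scale, with a median of 0.71 log2, and without THAL-SNS-032 B 15 were higher and 0 lower. On the spike-in scale 24 were lower, 1 higher and 4 not called. TP53INP1, an autophagy and stress gene, was the higher one: 3.18, 1.11 and 1.91 counts per 10000 spike-in counts in DMSO and 6.00, 8.73 and 6.76 with THAL-SNS-032. Every treated library lay above every control, and the rise was 1.74 ± 0.41 log2 (SE, edgeR adjusted p = 8.51e-05), to 335% of the control level. It had 15 counts over the DMSO libraries and 91 with treatment. With so few DMSO counts, its place among the genes tested depends on libraries where it is high.

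CDKN1A, the cell cycle inhibitor p21, was at 17.5, 20.5 and 17.2 counts per 10000 spike-in counts in DMSO and at 23.4, 22.4 and 25.4 with treatment. The treated values all lay above the controls, but the spike-in change missed the threshold (0.37 ± 0.21 log2, SE, edgeR adjusted p = 0.0794), while limma on the authors' loess values gave 0.45 log2 (adjusted p = 0.0423). On the TMM scale it was higher by 3.18 log2 (edgeR adjusted p = 1.08e-20). MDM2, the ligase that degrades p53, was at 64.0, 89.8 and 81.3 in DMSO and at 75.2, 71.6 and 69.9 with treatment, overlapping values with a spike-in change of -0.11 log2 (edgeR adjusted p = 0.395).

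SESN1, a sestrin, kept 48.7% and XPC, a DNA damage sensor, 39.8% of the control level; MDM2, SESN1 and XPC were named after their values were seen. PPM1D, a phosphatase that turns p53 signalling off, was the lowest member: 22.3, 26.1 and 19.8 in DMSO and 1.72, 1.07 and 1.29 with treatment, leaving 6.03%. Its TMM call ended without THAL-SNS-032 B (edgeR adjusted p = 0.0832) or C (0.0617), and that of the kinase PLK3 without THAL-SNS-032 A (0.0837) or B (0.256). The list thus held both the p53 targets that kept the most RNA and, in PPM1D, a target that kept less than the median gene.

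Immediate early genes, which respond to signals without new protein, lay on both sides of the median gene. Of 33 tested, 8 were higher and 10 lower on the TMM scale, and without THAL-SNS-032 B 7 and 4. The higher members included JUN (1.58), ATF3 (1.99), FOS (2.25) and FOSB (2.90), all low transcripts here. On the spike-in scale 30 of the list were tested, 28 were lower and 0 higher, and the highest change was -0.79. A rise per seeded cell is thus not shown for any of these members. JUN, of the AP-1 factors, went from 9.54, 19.4 and 12.2 to 6.57, 4.28 and 6.76 counts per 10000 spike-in counts, a fall to 42.7%. ATF3, a stress factor, was not called on the spike-in scale (-0.79 log2, edgeR adjusted p = 0.109), but was called lower without THAL-SNS-032 C (-1.14 log2, adjusted p = 0.0422). The lower members included ZFP36L2, which promotes decay of AU-rich messages, with 197, 302 and 244 in DMSO and 16, 13.4 and 16.4 with treatment, leaving 6.12%.

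Chaperones lay on both sides of the median gene. Of 29 genes 7 were higher and 9 lower on the TMM scale. HSPA8, the constitutive HSP70, went from 392, 502 and 363 to 21.2, 28.5 and 32.2 counts per 10000 spike-in counts, leaving 6.53%, while HSP90AA1 went from 3549, 3675 and 3153 to 772, 697 and 809.9, leaving 22%. Among 39 genes of G2 and mitosis 13 were lower and 1 higher on the TMM scale. AURKA, a mitotic kinase, went from 272, 319 and 276 to 22.3, 13.0 and 22.9, leaving 6.51%. CCNA2 (-1.0), CDC20 (-0.86) and PLK1 (-0.83) followed it, named after their values were seen. Among 35 genes of BCR-ABL and STAT5 signalling, the pathway that drives this leukemia, 9 were lower and 1 higher. PIM3, a STAT5 target kinase, went from 401, 510.2 and 429.8 to 35.2, 19.8 and 35.7, leaving 6.61%.

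**Figure D4:**
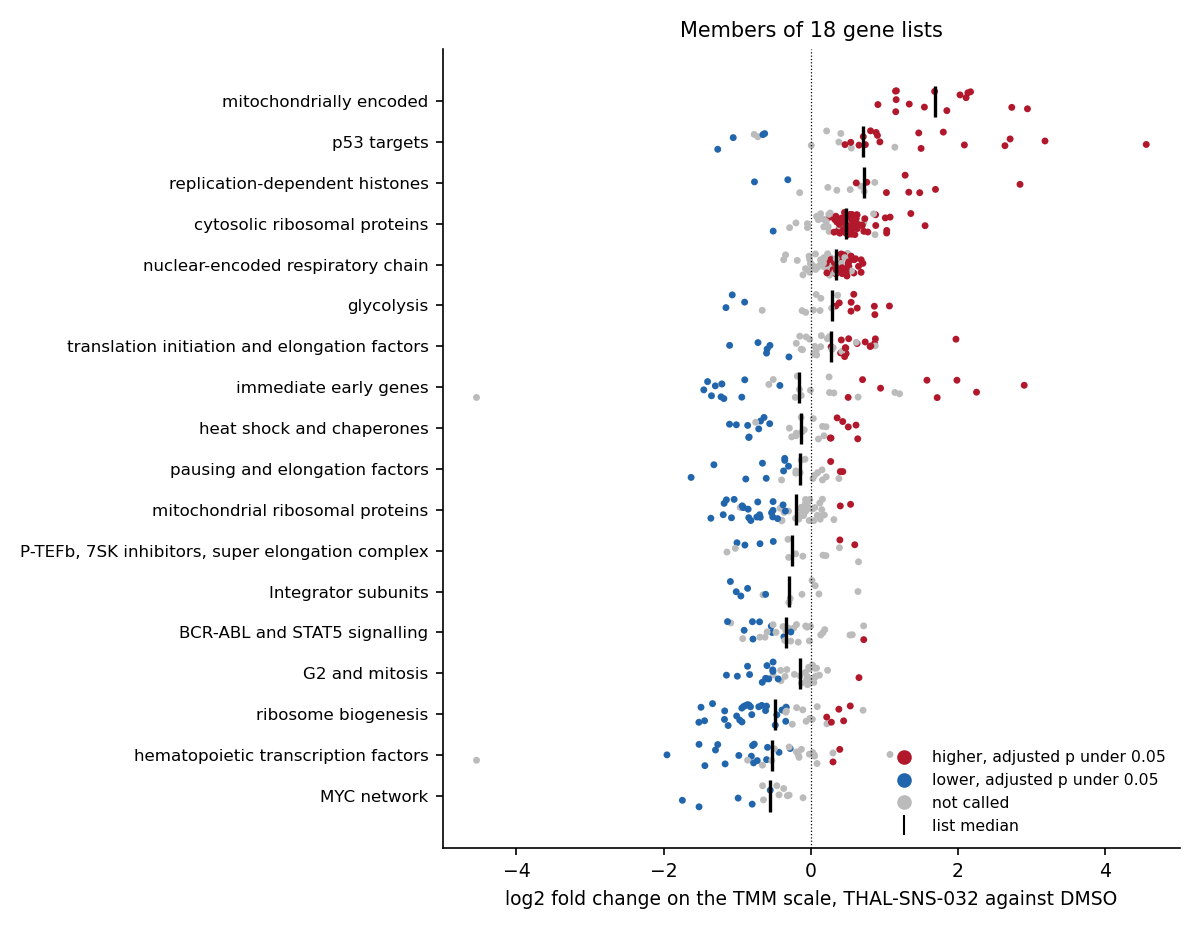
TMM-scale log2 fold change of THAL-SNS-032 over DMSO for each tested member of 18 gene lists, red where higher and blue where lower at an adjusted p under 0.05 (edgeR), with list medians as black bars. Medians run from 1.68 for mitochondrially encoded genes through 0.48 for ribosomal proteins to -0.48 for ribosome biogenesis and -0.55 for the MYC network.

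The deepest falls included genes of low and moderate level. PELI3, a ligase of innate immune signalling, had 85 counts over the DMSO libraries and 3 over the treated ones, a ratio of 2.0% with a 95% counting interval from 0.405% to 6.06%. MYD88, the adaptor of Toll-like receptors, went from 9.94, 24.4 and 14.1 to 0, 0.713 and 0.322 counts per 10000 spike-in counts. HYAL2, a hyaluronidase, went from 27.4, 42.7 and 33.2 to 1.14, 0.713 and 1.29, leaving 3.03%. EXOSC3, a subunit of the RNA exosome, kept 4.05%. All 4 lay far below the 13.8% of the median gene, and these genes were lower on the TMM scale as well.

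The 32 genes higher on the spike-in scale were mostly scarce: 29 of them had fewer than 30 counts over the DMSO libraries, and the median was 6 counts in DMSO and 40 with treatment. Of the 32, 12 had at most 3 counts over the DMSO libraries. These 12 passed the count filter only through other libraries, such as the treated ones, so their place here depends on where they are high. The filter asks for about 10 counts in each of 3 libraries, so the 29 genes could hardly pass on the DMSO libraries alone either. The place of all 29 thus depends on where they are high. The arms did not overlap in 24 of the 32, a smaller share than the 11943 of 12515 over all genes tested. The 32 genes were long, with a median of 57.6 kb beside 29.4 kb over all genes tested. Of them 12 (37.5%) spanned at least 100 kb, beside 17.7% of all genes tested. The 438 genes tested and not called were nearer to the 32 in level, with DMSO medians of 1.05 and 0.644 CPM. Their median length was 23.8 kb, and 27.2% of them spanned at least 100 kb. Whether length goes with the rise apart from level was not tested. CRTAM (chromosome 11, 122838500 to 122872639), a lymphocyte receptor, had 0 counts in every DMSO library and 3.14, 2.67 and 3.54 counts per 10000 spike-in counts with treatment, at least 7.0-fold higher against a floor of 3 counts over the group. With the counting error of its 37 treated counts included, the lower limit was 5.42-fold. KCNQ1OT1 (chromosome 11, 2608328 to 2699994), a long antisense RNA of an imprinted domain, went from 0.795, 5.55 and 2.67 to 8.0, 8.19 and 10.9 (1.67 ± 0.43 log2, SE, edgeR adjusted p = 0.000287). NEB and RYR2, giant muscle genes of 249 kb and 792 kb, each had 3 counts in DMSO and 25 with treatment, a ratio of 4.73-fold with a 95% counting interval from 1.44 to 24.5.

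Small RNAs inside other genes appeared too, under the same limit of the count filter. SNORD46, a box C/D snoRNA, went from 1.59, 0.555 and 0.763 to 6.00, 5.88 and 5.47 counts per 10000 spike-in counts (2.47 ± 0.53 log2, SE, edgeR adjusted p = 1.78e-05). The arms were apart. Whether such counts come from the small RNA or from its host transcript cannot be told apart in these counts, nor those of KCNQ1OT1 from KCNQ1 on the other strand, since the strand setting of the counting is not given in the sources used here. The call of NEB ended without DMSO A (edgeR adjusted p = 0.0589), and that of RYR2 without DMSO A (0.0711) or THAL-SNS-032 A (0.0605). The count table holds genes with at least 70 counts over all 66 libraries, which limits which scarce genes could be seen to rise.

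Gene structure went with the change only weakly. Protein-coding genes were cut into 5 equal bins by length, and the TMM median was -0.23 log2 in the shortest (up to 11.2 kb) and 0.15 in the longest (from 96.5 kb). In the shortest bin 24.3% of genes were lower and 13.1% higher, and in the longest 8.58% and 20.8%. The quartiles of the 2 bins overlapped. Of 281 processed pseudogenes 61 were higher (21.7%) and 1 lower (0.356%) on the TMM scale, with a median of 0.81. Of 383 zinc finger genes named ZNF 10 were higher (2.61%) and 68 lower (17.8%), with a median of -0.30. Over all genes tested 14.1% were higher and 16% lower, and over protein-coding genes 13.5% and 17.9%. The share of ZNF genes called lower was thus near that of protein-coding genes. These are descriptions across genes, which are not replicates.

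In the CDK9-dTAG line the same kinase is targeted through another ligand, dTAG7, which binds a tag on CDK9. The CDK9 protein was not analysed there either. The 3 dTAG7 libraries of this line against its own 3 DMSO libraries gave a similar fall. On the spike-in scale 11933 genes were lower (95.3%) and 28 higher (0.224%), with a median of -2.93 log2. On the TMM scale 2725 genes were higher (21.1%) and 3475 lower (27%). No library is shared with the wild-type comparison. Over 10183 genes with at least 5 CPM, the TMM log2 changes of both treatments had a Pearson r of 0.796 and a Spearman rho of 0.799, given as a description across genes. Of 1510 such genes higher with THAL-SNS-032, 1240 were higher in the line (82.1%, and 53.9% of the 2300 higher in the line), and of 1976 lower, 1721 were lower (87.1%, and 52.7% of 3268). Only 6 and 1 were called in the opposite direction.

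The test of the difference between the 2 effects called few genes. On the spike-in scale 279 genes (2.23%) were higher with THAL-SNS-032, that is, fell less than in the CDK9-dTAG line, and 52 (0.416%) were lower. On the TMM scale 474 (3.68%) were higher and 238 (1.85%) lower. POP7, a subunit of RNase P, kept 6.86% with THAL-SNS-032 and 2.54% in the line (difference 1.44 ± 0.24 log2, SE, edgeR adjusted p = 0.000661). IWS1, a partner of the elongation factor SPT6, kept 9.35% and 4.33% (1.11 ± 0.19 log2), and TLE3, a corepressor, 8.17% and 2.82% (1.54 ± 0.26 log2). MYB kept 8.43% and 4.38% (0.95 ± 0.17 log2, edgeR adjusted p = 0.000811). These 4 genes thus fell in both systems, and further in the line.

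In the other direction, TXNIP, an inhibitor of thioredoxin, kept 20.5% with THAL-SNS-032 and 47.9% in the line (-1.22 ± 0.29 log2, SE, edgeR adjusted p = 0.00984, and 0.051 without CDK9-dTAG dTAG7 A). HIST2H2BC, annotated as a transcribed unprocessed pseudogene of a histone gene cluster, kept 48.9% and stood at 186% in the line (-1.93 ± 0.41 log2, edgeR adjusted p = 0.00419). GSPT1, a translation termination factor whose protein some cereblon ligands degrade, kept 14.0% and 20.9% (-0.58 ± 0.12 log2, edgeR adjusted p = 0.00362). Among ribosomal proteins 23 of 80 were lower on the TMM scale in this difference, and among respiratory chain genes 13 of 70. The difference was not called for CEBPA (-0.06 log2), CDKN1A (-0.28), MDM2 (-0.05), HEXIM1 (0.11) or MYC (-0.10 ± 0.68, SE, edgeR). The counts of this test depend on single libraries. Without CDK9-dTAG dTAG7 replicate A they were 24 higher and 19 lower on the spike-in scale and 118 and 44 on the TMM scale, and without THAL-SNS-032 B 639 and 49 on the spike-in scale.

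**Figure D5:**
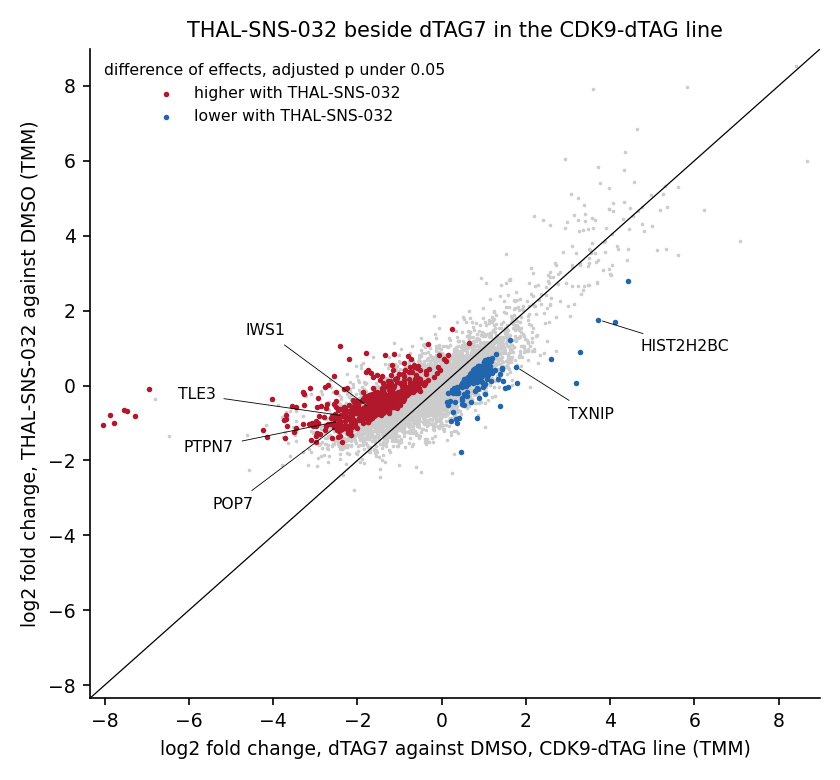
TMM-scale log2 fold change of THAL-SNS-032 over DMSO in wild-type cells (y axis) against that of dTAG7 over DMSO in the CDK9-dTAG line (x axis) for 10183 genes with at least 5 CPM; the line marks equal change. Genes whose difference passed an adjusted p under 0.05 (edgeR) are colored, red where higher with THAL-SNS-032 (such as POP7 and IWS1) and blue where lower (such as TXNIP and HIST2H2BC).

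The BET degrader dBET6 works through the same ligase receptor. At 100 nM, beside 250 nM of THAL-SNS-032, it left less RNA: 12150 genes were lower (97.1%) and 53 higher (0.423%) on the spike-in scale against the same DMSO libraries, with a median of -3.67 log2. Tested directly, 6684 genes (53.4%) were higher with THAL-SNS-032 than with dBET6 on the spike-in scale and 49 (0.392%) lower. On the TMM scale 325 (2.52%) were higher and 270 (2.09%) lower, counts that fell to 94 and 119 without dBET6 replicate A, to 202 higher without dBET6 replicate B and to 190 higher without THAL-SNS-032 replicate C. The doses differ, so these are differences between the conditions as run.

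SMIM3, which encodes a small membrane protein, kept 17% with THAL-SNS-032 and 2.33% with dBET6 (direct difference 2.87 ± 0.21 log2, SE, edgeR adjusted p = 1.15e-15 on the spike-in scale). MYB kept 8.43% and 2.77% (1.61 ± 0.13 log2). EGR1 and JUN went the other way, while 6 of the immediate early genes were higher and 5 lower with THAL-SNS-032 than with dBET6 on the spike-in scale, and 0 and 9 on the TMM scale. EGR1, induced by growth signals, was at 1.99, 12.8 and 7.25 counts per 10000 spike-in counts in DMSO and at 1.43, 1.07 and 0.966 with THAL-SNS-032, while it stood at 487% of DMSO with dBET6 (direct difference -4.82 ± 0.36 log2, edgeR adjusted p = 1.15e-15). JUN stood at 42.7% with THAL-SNS-032 and 289% with dBET6 (-2.76 ± 0.23 log2). HEXIM1 was not called on the spike-in scale between the degraders (-0.09 log2, edgeR adjusted p = 0.751) and was lower with THAL-SNS-032 on the TMM scale (-0.86 log2, adjusted p = 0.00389).

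Of 19 listed myeloid and progenitor markers 12 were in the count table, and of 23 listed markers of other cell types 11. In DMSO the surface genes SPN, PTPRC and CD34 stood at 789, 289 and 138 CPM, and the myeloid gene MPO at 3.16. The 11 markers of other cell types in the table summed to 98.5 to 136 counts per 10000 spike-in counts in DMSO and 14.8 to 26.4 with THAL-SNS-032. The highest in DMSO were the keratin KRT18 at 24.9 CPM, the endothelial and platelet gene PECAM1 at 15.9 and the T cell gene CD3D at 11.5. The T cell genes CD3E and CD3G stood at 2.13 and 0.23 and the B cell gene MS4A1 at 0. KRT18, 1 of the 11, was lower on the TMM scale and 2, CD3G and MS4A1, were higher. At 0.23 and 0 CPM in DMSO, these 2 could pass the count filter only through other libraries. Their calls thus depend on where they are high. On the spike-in scale 9 of the 11 were tested, and all 9 were lower. The part of such markers in the results was not tested.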

How the data were processed

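QuantSeq 3′ end libraries of KBM7 cells were analysed from the gene-level read counts that the authors deposited for all 66 libraries, 13331 genes with 37 ERCC and 7 SIRV spike-ins. Tools named in the submitters' processing notes were HTSeq 0.6.0, STAR 2.5.2b and bedtools 2.26.0, with the genome build hg38. The authors' deposited loess-normalized values, read as a signal, served only in an alternative (limma 3.58.1 on log2 of the value + 1).

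Counts were fitted in edgeR 4.0.16 (R 4.3.3) with quasi-likelihood F tests over all 22 groups (44 residual degrees of freedom), filterByExpr and Benjamini-Hochberg adjustment over all genes tested. Library size was the spike-in count (spike-in scale, RNA per seeded cell) or the gene total with TMM factors (TMM scale, relative to the median gene). Percent left is 2 to the power of the fitted log2 change, and CPM are TMM-scaled. DESeq2 1.42.0 was an alternative, and the fits were tested on simulated data. Intervals and floors cover counting error only.

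Names came from GENCODE 29 (13297 genes matched), and promoter windows from RefSeq GRCh38.p14 (9753 genes matched). The members and gene lists were chosen with earlier results of these data known. Named genes were the 15 largest falls and rises on each scale among called genes of at least 5 CPM with arms apart, the P-TEFb list, 9 fixed genes, the 2 lowest and 2 highest of each list, and the 8 lowest p per direction of each difference test. Other members of a list named in the text were chosen after their values were seen.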

Additional observations from a re-analysis of the deposited data

Results flagged for a closer look

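Results are given here because the effect of THAL-SNS-032 in wild-type cells differed from that of dTAG7 in the CDK9-dTAG line by a test of the difference itself (edgeR quasi-likelihood test of the difference of the 2 effects, adjusted p under 0.05). On the spike-in scale 279 genes were higher with THAL-SNS-032 and 52 lower. On the TMM scale 474 were higher and 238 lower.

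Among the named genes, several fell less with THAL-SNS-032. The difference was 1.44 log2 on the spike-in scale and 1.39 on the TMM scale for POP7, of RNase P, and 1.11 and 1.09 for IWS1, an elongation factor. It was 1.49 and 1.46 for the phosphatase PTPN7 and 1.54 and 1.5 for the corepressor TLE3. It was 0.95 and 0.91 for MYB, 0.89 and 0.87 for AURKA, 1.32 and 1.34 for BYSL and 0.89 and 0.86 for LRRC47. NOP16 (0.85) and MCL1 (0.58) were higher on the TMM scale and not called on the spike-in scale (edgeR adjusted p = 0.113 and 0.0918). Lower with THAL-SNS-032 on both scales were GSPT1 (-0.58 and -0.58), HIST2H2BC, annotated as a pseudogene (-1.93 and -1.97), TXNIP (-1.22 and -1.27) and HSP90AA1 (-0.42 and -0.43). The ribosomal protein genes RPL38 (-0.43) and RPS16 (-0.53) were lower on the TMM scale, and their spike-in differences of -0.40 and -0.50 were not called (edgeR adjusted p = 0.106 and 0.0516), though that of RPS16 was called with SIRV counts alone (0.0312), without THAL-SNS-032 A (0.0459) and without CDK9-dTAG dTAG7 B (0.0496). Without CDK9-dTAG dTAG7 A the spike-in difference of TXNIP (0.051) and the TMM difference of GSPT1 (0.0911) were not called, nor was that of GSPT1 without THAL-SNS-032 A (0.0528). When only the libraries compared were fitted, the spike-in differences of GSPT1 (0.149) and HIST2H2BC (0.0503) were not called.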

How the results depend on the processing

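Depth limits genes of few counts, since the treated libraries are the shallower ones. Leaving out 1 library at a time gave 30 to 49 genes higher and 11944 to 12141 lower on the spike-in scale, 1260 to 1594 higher and 1257 to 1876 lower on the TMM scale, and a log2 ratio difference of -2.58 to -2.41. For the difference from dTAG7 in the CDK9-dTAG line it gave 24 to 639 higher and 19 to 67 lower on the spike-in scale and 118 to 453 and 44 to 249 on the TMM scale. For the difference from dBET6 it gave 5161 to 7088 and 32 to 65 on the spike-in scale and 94 to 382 and 119 to 311 on the TMM scale. Genes higher on the spike-in scale numbered 74 with no filter, 61 with at least 10 counts in 3 libraries and 9 when only the libraries compared were fitted. That last choice leaves fewer samples to estimate the spread. It gave 32 higher and 2 lower (spike-in scale) and 274 higher (TMM scale) for the difference from the CDK9-dTAG line, and 22 lower (spike-in scale), 10 higher and 43 lower (TMM scale) for that from dBET6. With SIRV counts alone 100 genes were lower in the difference from the CDK9-dTAG line. For the other moved counts the cause was not tested. The replicate letters did not pair the libraries (correlation of same-letter deviations -0.188 to -0.168), and the replicate block gave 33 and 12043 calls on the spike-in scale and 1793 and 2047 on the TMM scale.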

Other observations

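Globin and heme genes were mostly scarce in these cells and were not all alike. Of 22 tested, 5 were higher and 3 lower on the TMM scale, beside 14.1% and 16% of all genes tested. The embryonic and fetal globins HBE1 (2.46 log2) and HBG2 (3.07), the adult delta globin HBD (2.41) and ANK1 (4.13), a red cell membrane scaffold, were higher there, all from a mean under 1 CPM in DMSO, and were not called on the spike-in scale. The mitochondrial carrier SLC25A38 (-1.21) was lower on the TMM scale.

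Of 24 tested genes of the integrated stress response 7 were lower and 3 higher on the TMM scale, beside 16% and 14.1% of all genes tested. All 24 were lower on the spike-in scale. DDIT3, the factor CHOP, and TRIB3, its target, were among the lower ones (-1.41 and -1.37 log2 on the TMM scale). Of 51 genes of mRNA decay and deadenylation 16 were lower and 6 higher. The lower ones included the exosome subunits EXOSC3 (-1.82), EXOSC4 (-1.15), EXOSC9 (-0.57) and EXOSC2 (-0.51). Of 17 histone genes 8 were higher and 2 lower on the TMM scale, with a median of 0.73 log2, and without THAL-SNS-032 B 3 were higher and the median was 0.36.

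SNHG5, a host gene of small nucleolar RNAs, was even among the DMSO libraries and uneven among the treated ones: 254, 253 and 251 counts per 10000 spike-in counts in DMSO and 117, 264 and 60.5 in THAL-SNS-032 A, B and C.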
